A study of Mus musculus with 11 samples.

Results

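The 9 genes described here encode RNA-binding proteins that set how long messenger RNAs last in T cells. They are the Roquin paralogs Rc3h1 and Rc3h2, the Regnases Zc3h12a and Zc3h12d, the ZFP36 family members Zfp36, Zfp36l1 and Zfp36l2, the HuR gene Elavl1 and the Pumilio gene Pum2. They were chosen by name, as RNA-binding regulators of decay and for the Roquin paralogs that the study discusses, and all 9 were detected among the 35896 genes with summed counts and passed the filter on low counts that left 13749 genes tested. RNA was sequenced from mouse thymocytes of 2 early stages, DN2 and DN3, in which neither CD4 nor CD8 is on the surface. The 11 libraries fall into DN2 wild type (WT, n = 3), DN2 Arpp21 KO (n = 2), DN3 WT (n = 3) and DN3 Arpp21 KO (n = 3). All mice are labelled C57BL/6J, and the study used sex- and age-matched animals without giving the ages behind these libraries. The KO is a germline deletion made with guide RNAs around an exon of Arpp21, which shifts the reading frame of the long isoform, in 1 mouse line; no transgene or Cre is involved, and WT cells carry no modification. The labels do not say whether each library is a separate animal, so p-values measure the spread between these libraries, part of which may be technical.

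Roquin proteins bind stem-loops in 3′ untranslated regions (3′-UTRs) and recruit the CCR4-NOT deadenylase, Regnases cut such messages as endonucleases, and ZFP36 proteins bind AU-rich elements and also act through CCR4-NOT. HuR binds U- and AU-rich sequences and generally stabilises its targets, and Pumilio proteins repress messages that carry a Pumilio element. In T cells Roquin and Regnase-1 hold back costimulatory and inflammatory messages such as Icos, and in early thymocytes ZFP36L1 and ZFP36L2 are required together to restrain proliferation and to prevent leukaemia driven by Notch1. Arpp21 is itself an RNA-binding protein with a preference for U-rich 3′-UTR elements. The study names Rc3h1 and Rc3h2 among the messages that Arpp21 is crosslinked to. In mouse embryonic fibroblasts, the study reports that ectopic full-length Arpp21, but not its short isoform, raised endogenous Roquin protein. That evidence is at the protein level, whereas only RNA was measured in the libraries described here. The comparison of KO with WT therefore asks whether RNA of these decay factors differs when full-length Arpp21 is missing.

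The 3′-UTRs of the members hold different kinds of element, and a few are shown because U-rich tracts are the class that Arpp21 binds and AU-rich motifs are the class that ZFP36 proteins bind. All positions are on GRCm38, in the 3′-UTR of the GENCODE M21 coding transcript with the most counts, and each window is printed 5′ to 3′ on the message's strand with T for U. For Rc3h1 (Rc3h1-202, plus strand, chr1:160972588-160972617), Rc3h2 (Rc3h2-201, minus strand, chr2:37374662-37374691) and Pum2 (Pum2-216, plus strand, chr12:8749798-8749827), the capitals mark the longest run of T in the 3′-UTR.
Rc3h1: ctatggcTTTTTTTTTTTTTTTTaacagct
Rc3h2: ttctgtcTTTTTTTTTTTTTTTTgagagtg
Pum2: gaatctttgaTTTTTTTTTaaagcaaaact
For Zfp36 (Zfp36-201, minus strand, chr7:28376965-28376994), Zfp36l1 (Zfp36l1-201, minus strand, chr12:80108421-80108450) and Zfp36l2 (Zfp36l2-201, minus strand, chr17:84184913-84184942), the capitals mark the first TATTTAT, the core of an AU-rich element.
Zfp36: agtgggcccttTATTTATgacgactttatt
Zfp36l1: ttatcaaaacgTATTTATtgccaaactatg
Zfp36l2: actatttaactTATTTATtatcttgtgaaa

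The longest T run had 16 bases in both Roquin 3′-UTRs and 9 in that of Pum2. The motif TTTTTTTT, searched on the message's strand only with overlapping matches counted, occurred 17 times in the 7181 nucleotides of the Rc3h1 3′-UTR and 16 times in the 5160 nucleotides of the Rc3h2 3′-UTR. Counted this way, a single long run of T gives several matches, so matches are not separate tracts. The motif is common in 3′-UTRs within 20% of those lengths, where 86.2% of 225 genes and 73.6% of 573 genes hold it, with medians of 6 and 4 matches. It also occurred 11 times in the 2327 nucleotides of Zc3h12d and 7 times in the 1257 nucleotides of Elavl1, a higher density than in either Roquin gene, and 47.4% and 28.4% of genes of like length to those hold it. The other members had 0 to 3 matches. The 3 of Zc3h12a lie in 856 nucleotides, also a higher density than in either Roquin gene, and 22.1% of genes of like length hold the motif. TATTTAT occurred 3 times in each of the 3 ZFP36 family 3′-UTRs, against 18.4% of 1525 genes of like length that hold at least 1 match for Zfp36, 37.1% of 1740 for Zfp36l1 and 37.1% of 1739 for Zfp36l2. TATTTAT also occurred 3 times in Rc3h2, 2 times in Rc3h1 and 1 time in Pum2, where 68.6%, 78.7% and 47.5% of genes of like length hold it, and 0 times in the 3′-UTRs of Zc3h12a, Zc3h12d and Elavl1. The Pumilio element TGTANATA, which can share bases with TATTTAT, occurred 2 times in Rc3h1, 1 time in Rc3h2 and 2 times in Pum2. Of genes of like 3′-UTR length, 72.0% of 225, 60.9% of 573 and 43.2% of 1357 hold it. These matches describe the reference sequence and do not measure binding.

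Levels are given as CPM, counts scaled to library size by the TMM method, with a total of 14531762 to 63109504 estimated counts per library (median 21501831). Differences are log2 fold changes from edgeR's quasi-likelihood test fitted to all 11 libraries, with Benjamini-Hochberg adjustment over the 13749 genes, called at an adjusted p under 0.05, and with a standard error (SE) derived from the test statistic. DN2 KO replicate 2 and DN3 KO replicate 3 stood apart from the other 9 libraries in measures taken over all tested genes. Their TMM factors were 0.599 and 0.861, while those of the other libraries were between 1.03 and 1.11. Transcripts of 6000 nt or more (1056 genes) lay at a median of -1.96 and -1.23 on the log2 scale from the WT mean of their stage in these libraries, and transcripts under 2000 nt (4789 genes) at 1.18 and 0.54. In the other libraries these medians stayed between -0.10 and 0.18. The summed level of 6 DN3 markers separated the stages, at 2038 to 2220 CPM in DN2 WT and 6542 to 6678 CPM in DN3 WT, and Ptcra, the pre-TCR alpha chain, averaged 1.83 and 398 CPM. The sum of 8 DN2 markers did not, at 2435 to 3181 CPM in DN2 WT and 2756 to 3318 CPM in DN3 WT. Of these, Kit (484 and 82.7 CPM), Cd44 and Il7r were lower on average in DN3 WT, while Tcf7 (402 and 798 CPM), Bcl11b, Mpzl2, Il2ra and Gata3 were higher. Of 5 B cell markers, Cd79b averaged 43.0 to 64.0 CPM in every group and made up nearly all of a sum of 38.6 to 71.9 CPM, while Pax5 was at 0 in all 11 libraries. The 7 myeloid markers summed to 114 to 159 CPM in DN2 WT, 134 and 357 CPM in DN2 KO, and 29.9 to 47.6 CPM in the DN3 libraries, where Lyz2 and in DN2 also Tyrobp contributed most. Arpp21 itself was 312 to 386 CPM in DN3 WT, 142 to 335 CPM in DN3 KO, 125 to 183 CPM in DN2 WT, and 86.9 and 28.5 CPM in DN2 KO, a sum over all transcripts that does not read out the loss of 1 exon.

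Among the 9 factors, Rc3h2 had the clearest difference in DN3, with a level in KO about 2.20-fold below that in WT, and no factor passed the adjusted threshold in either stage by edgeR. Rc3h1, Rc3h2 and Zfp36l1 were lower in all 3 KO libraries than in any WT library in DN3, 3 of 9 against 5.58% of all tested genes, and Zc3h12a was higher, 1 of 9 against 4.96%. Together 4 of 9 did not overlap, against 10.5% of all tested genes. Rc3h2 alone had an unadjusted p under 0.05, as did 1.05% of all tested genes in the lower direction. By edgeR 1 gene of all tested (0.00727%) was called, DESeq2 called 16 and limma voom with sample quality weights 118, Rc3h2 among them. In DN2, Rc3h1, Rc3h2 and Pum2 were lower in both KO libraries than in any WT library, 3 of 9 against 8.27% of all tested genes in that direction and 15.8% in either. The same 3 had an unadjusted p under 0.05, as did 2.6% of all tested genes in the lower direction. The background of calls in DN2 was 0.0% by edgeR and 0 genes by limma voom, with 2019 genes (14.7%) at an unadjusted p under 0.05 in edgeR in either direction, and DESeq2 called 38, none of them a member.

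**Figure D1:**
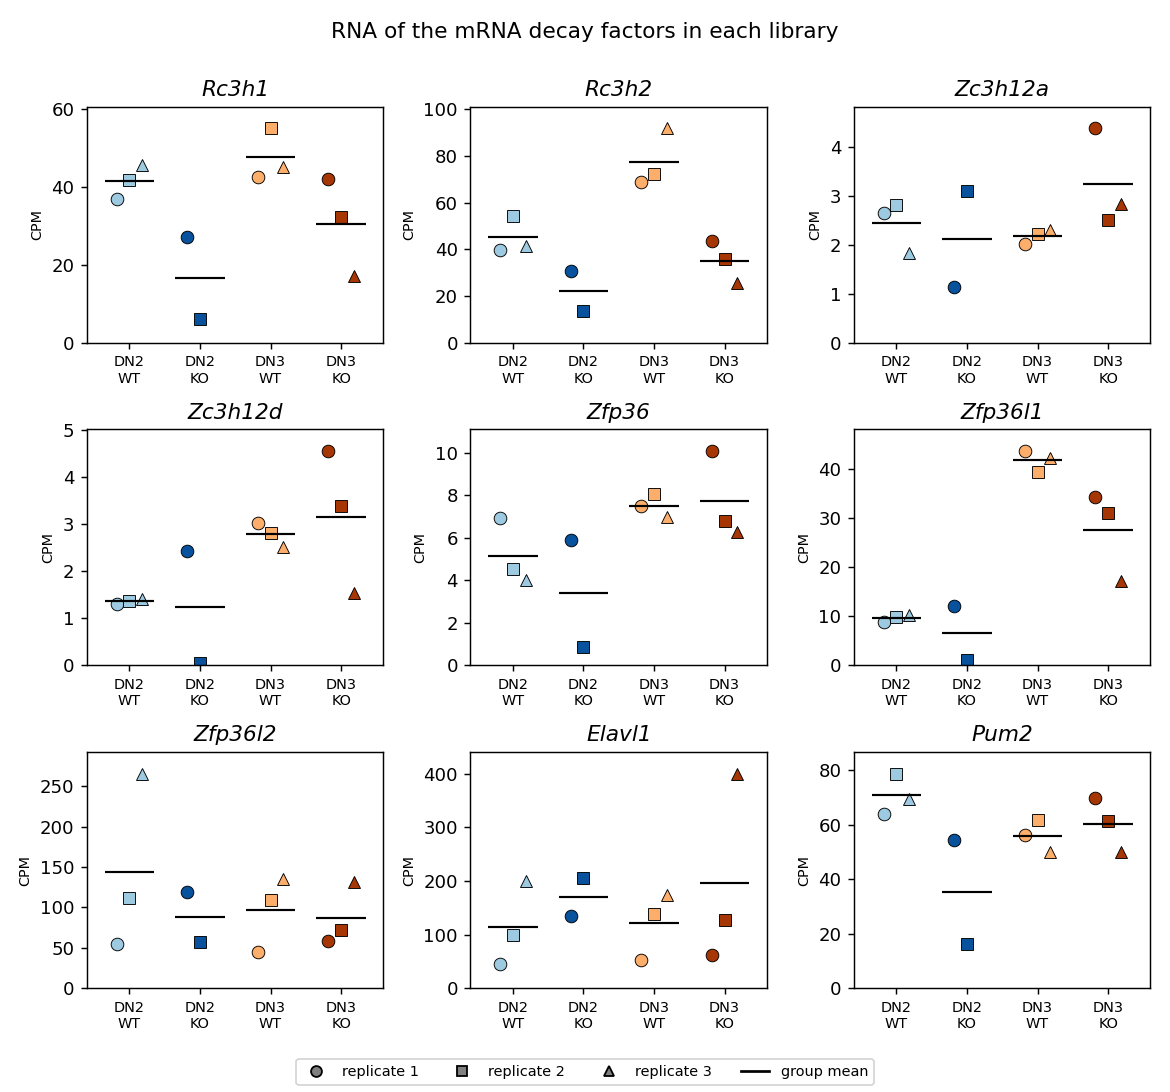
Level of each decay factor in CPM (y axis, from 0 and different in each panel) in the 11 libraries, grouped by stage and genotype; markers are libraries by replicate number, bars are group means. Rc3h2 in DN3 lies between 25.7 and 43.8 CPM in KO and between 68.7 and 92.0 CPM in WT, while Elavl1 and Zfp36l2 spread widely within groups.

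Rc3h2 (Roquin-2, ENSMUSG00000075376.10, chromosome 2) was measured at 68.7, 72.2 and 92.0 CPM in the 3 DN3 WT libraries and at 43.8, 36.05 and 25.7 CPM in the 3 DN3 KO libraries. The groups did not overlap, and the highest KO library was still below the lowest WT library. The means were 77.6 ± 12.6 and 35.2 ± 9.06 CPM (SD, n = 3 each), which corresponds to -1.14 on the log2 scale with an SE of 0.35 (edgeR, unadjusted p = 0.00827, adjusted p = 1). Rc3h2 belongs to a set of Arpp21-bound messages that the study selected for their difference in these DN3 libraries, so its direction here is not independent evidence. Without DN3 KO replicate 3, whose long transcripts were low, the log2 fold change was -0.96 (edgeR, adjusted p = 1), and with an offset for each library's trend over transcript length it was -0.75 (adjusted p = 1). Without both libraries that stood apart the DN3 difference of Rc3h2 was -0.965 (edgeR, adjusted p = 0.27). By DESeq2 it was -1.12 (adjusted p = 0.42). Of 22 alternatives only limma voom with sample quality weights called it, at -1.05 (adjusted p = 0.0104), and the adjusted p ranged from 0.0104 to 1 over all of them. The DN2 WT libraries had 39.8, 54.2 and 41.4 CPM of Rc3h2, and the DN2 KO libraries had 30.8 and 13.5. Here too both KO libraries were below all WT libraries, with a log2 fold change of -1.03 (SE 0.40, edgeR, unadjusted p = 0.0268, adjusted p = 0.336). The DN2 difference was -0.53 without DN2 KO replicate 2 and -0.03 with the offset for transcript length.

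Rc3h1 (Roquin-1, ENSMUSG00000040423.10, chromosome 1), the paralog with which Roquin-2 overlaps in function, was at 42.5, 55.1 and 45.2 CPM in DN3 WT and at 42.0, 32.2 and 17.3 CPM in DN3 KO. The groups did not overlap, but KO replicate 1 came within 1 CPM of the lowest WT library and the lowest value came from KO replicate 3. The log2 fold change was -0.64 (SE 0.49, edgeR, unadjusted p = 0.222, adjusted p = 1), and -0.36 without KO replicate 3. The DN2 WT libraries had 36.9, 41.8 and 45.6 CPM and the DN2 KO libraries 27.3 and 6.12, with replicate 2 far below replicate 1. This gave a log2 fold change of -1.31 (SE 0.58, edgeR, unadjusted p = 0.0453, adjusted p = 0.338), which was -0.58 without DN2 KO replicate 2 and -0.63 with the offset for transcript length. The direction was the same in all 22 alternatives in both stages, whereas the size in DN2 ran from -2.77 to -0.58.

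The ratio of the paralogs was higher in the DN3 WT than in the DN2 WT libraries, a description that was not tested. Rc3h2 over Rc3h1 in CPM was 1.08, 1.30 and 0.908 in DN2 WT and 1.61, 1.31 and 2.03 in DN3 WT, so that all DN3 values were above all DN2 values, the nearest pair by a narrow margin. In DN3 KO the ratio was between 1.04 and 1.49, which overlapped the DN3 WT range, and in DN2 KO it was 1.13 and 2.20. Both Roquin messages are long, with a count-weighted mean transcript length of 9513 nt for Rc3h1 and 8412 nt for Rc3h2. Within Rc3h1, the 11006 nt transcript Rc3h1-202 took 70.6 to 71.4% of the gene's estimated counts in DN2 WT and 84.0 to 91.0% in DN3 WT, without overlap, and 77.8 to 88.2% in DN3 KO. The remainder came almost entirely from Rc3h1-201, of 3476 nt, which took 28.6 to 29.4% in DN2 WT and 8.85 to 15.9% in DN3 WT. Such shares are kallisto's allocation of reads between transcripts and were not tested.

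The Regnases were low throughout. Zc3h12a (Regnase-1, ENSMUSG00000042677.7, chromosome 4), an endonuclease that cleaves inflammatory messages, was at 2.01, 2.22 and 2.30 CPM in DN3 WT and at 4.38, 2.50 and 2.82 CPM in DN3 KO. All KO libraries were above all WT libraries, by as little as 0.2 CPM, on 35 to 102 estimated counts. The log2 fold change was 0.57 (SE 0.49, edgeR, unadjusted p = 0.269, adjusted p = 1). In DN2 the ranges overlapped, with 1.84 to 2.82 CPM for WT and with 1.14 and 3.10 for KO. Zc3h12d (Regnase-4, ENSMUSG00000039981.6, chromosome 10) was at 2.52 to 3.01 CPM in DN3 WT and 1.53 to 4.55 CPM in DN3 KO, and the DN2 libraries had 1.31 to 1.42 CPM for WT and 2.44 and 0.0535 for KO. The lowest of these values rests on 2 estimated counts in DN2 KO replicate 2. KO and WT overlapped in both stages for Zc3h12d, with log2 fold changes of 0.19 (SE 0.90) in DN3 and -0.14 (SE 1.03) in DN2.

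Within the ZFP36 family, Zfp36l1 (ENSMUSG00000021127.7, chromosome 12) was at 43.8, 39.5 and 42.4 CPM in DN3 WT and at 34.4, 31.0 and 17.3 CPM in DN3 KO. Every KO library was below every WT library, and the lowest was again KO replicate 3. The log2 fold change was -0.60 (SE 0.63, edgeR, unadjusted p = 0.360, adjusted p = 1) and -0.36 without that replicate. The DN2 WT libraries had 8.93, 9.96 and 10.3 CPM of Zfp36l1 and those of DN2 KO 12.2 and 1.15, so that the KO libraries lay on either side of WT. Leaving out DN2 KO replicate 2 turned the DN2 log2 fold change from -0.55 to 0.35. Zfp36 (tristetraprolin, ENSMUSG00000044786.6, chromosome 7), an immediate early gene of the family, was at 6.99 to 8.06 CPM in DN3 WT and 6.29 to 10.1 CPM in DN3 KO, with overlap, and its log2 fold change was 0.04 (SE 0.58). The DN2 WT libraries had 4.03 to 6.93 CPM and the DN2 KO libraries 5.90 and 0.882. The direction of both Zfp36 differences turned with the libraries or scale used.

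Zfp36l2 (ENSMUSG00000045817.8, chromosome 17) and Elavl1 (HuR, ENSMUSG00000040028.10, chromosome 8) varied more between libraries of 1 group than between groups. Zfp36l2 was at 44.6, 109 and 135 CPM in DN3 WT, 58.5, 72.1 and 131 CPM in DN3 KO, 54.1, 111 and 266 CPM in DN2 WT, and 119 and 57.4 CPM in DN2 KO. Elavl1 was at 51.7, 138 and 175 CPM in DN3 WT, 61.2, 128 and 401 CPM in DN3 KO, 44.5, 98.5 and 199 CPM in DN2 WT, and 134 and 206 CPM in DN2 KO. For Elavl1 the library numbered 1 was the lowest in all 4 groups, a pattern shared by 854 of the tested genes (6.21%), and for Zfp36l2 it was the lowest in every group but DN2 KO. What the number stands for is not given in the labels, and edgeR fits with the number as a block called neither gene. The Elavl1 log2 fold change in DN3 was 0.69 (SE 0.73) and became -0.36 without KO replicate 3, and that of Zfp36l2 was -0.14 (SE 0.61). With intervals of 2 SE from -0.77 to 2.16 for Elavl1 and from -1.37 to 1.08 for Zfp36l2, a change by a factor of about 2 in either gene was not resolved.

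Pum2 (ENSMUSG00000020594.14, chromosome 12) differed from the Roquin genes in DN3. Its WT libraries had 56.4, 61.7 and 49.96 CPM and its KO libraries 70.0, 61.4 and 50.03, and the groups overlapped over most of their range, with a log2 fold change of 0.11 (SE 0.38, edgeR, unadjusted p = 0.780, adjusted p = 1). The DN2 WT libraries had 64.1, 78.9 and 69.6 CPM, and those of DN2 KO had 54.5 and 16.3. Both KO libraries were below all WT libraries, and the log2 fold change of -1.002 (SE 0.44, edgeR, unadjusted p = 0.0462, adjusted p = 0.338) was -0.36 without DN2 KO replicate 2. The difference between the stages in the effect of genotype was 1.11 on the log2 scale for Pum2 (SE 0.58, edgeR, unadjusted p = 0.0839, adjusted p = 0.965). No other member had a smaller p in that interaction test, in which edgeR called 0 genes (0.0%), 372 genes (2.71%) had an unadjusted p under 0.05 and DESeq2 called 10. Without DN2 KO replicate 1 the DN2 KO group was replicate 2 alone, assumed to vary like the other groups, and 6 members were then called lower in DN2, as were 3700 of 14648 tested genes (25.3%). They were Rc3h1 at -2.77, Rc3h2 at -1.75, Pum2 at -2.13, Zfp36 at -2.55, Zfp36l1 at -3.09 and Zc3h12d at -4.55 (edgeR, adjusted p from 0.00264 to 0.00613). In the interaction 5 were then called higher, Rc3h1 at 2.13, Pum2 at 2.24, Zfp36 at 2.60, Zfp36l1 at 2.49 and Zc3h12d at 4.74 (edgeR, adjusted p from 0.00890 to 0.0278), as were 2352 of all tested genes (16.1%). DN2 KO replicate 2 is the library in which long transcripts were low.

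**Figure D2:**
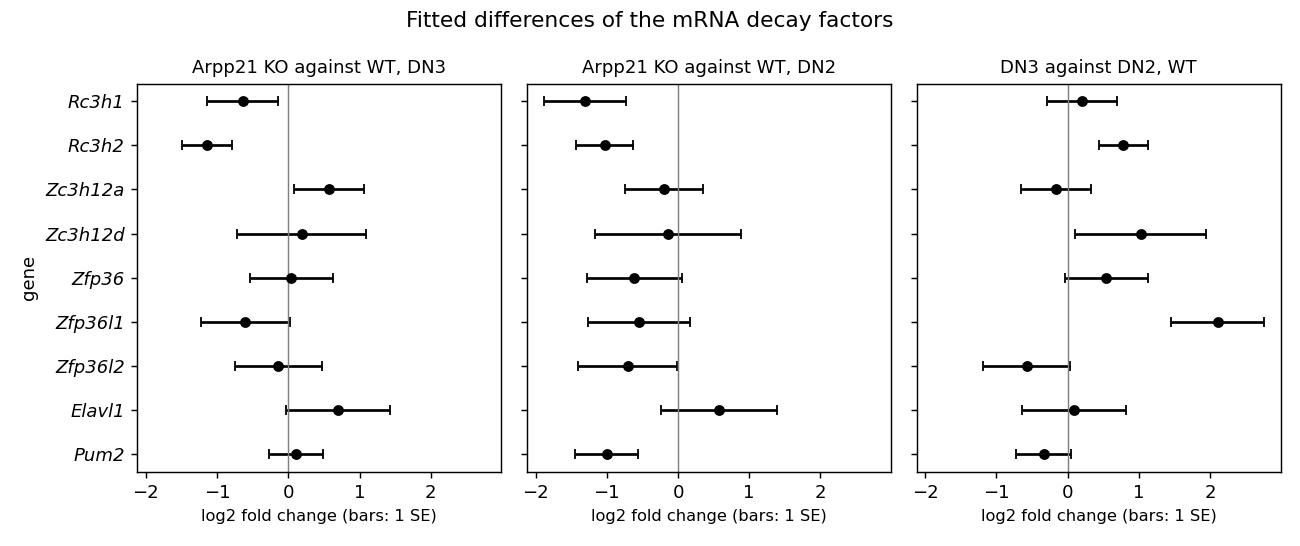
Log2 fold change (x axis, bars 1 SE) of each decay factor (y axis) for KO against WT in DN3, KO against WT in DN2, and DN3 against DN2 in WT, from the edgeR fit to all 11 libraries. Rc3h2 lies at -1.14 and -1.03 in the KO comparisons, and Zfp36l1 at 2.10 in the stage comparison.

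In DN2 the differences of the members followed their length, as did those of the other genes. Over all tested genes the median log2 fold change in DN2 KO was 1.02 for transcripts under 1000 nt, -0.02 for those of 2000 to 3000 nt and -0.70 for those of 8000 nt or more (347 genes). The 3 longest members, Rc3h1, Rc3h2 and Pum2 (5592 nt), were those at -1.31, -1.03 and -1.002, while the members between 2451 and 4092 nt ranged from -0.71 to 0.58. In DN3 the corresponding medians were 0.33, -0.00 and -0.22, and Rc3h2 at -1.14 and Rc3h1 at -0.64 lay below the last of them. Length is a property that these values move with, and with DN2 KO replicate 2 as 1 of only 2 libraries, its part in the DN2 differences cannot be told apart from genotype.

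**Figure D3:**
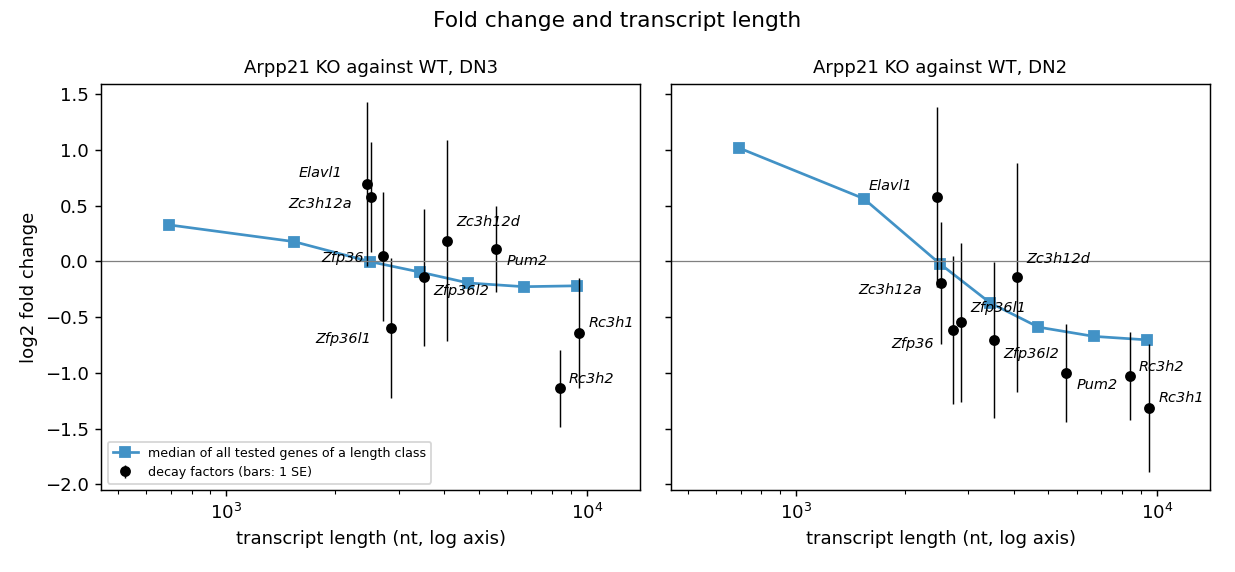
Log2 fold change of KO against WT (y axis) against transcript length in nt (x axis, log scale) in DN3 (left) and DN2 (right); blue squares are medians of all tested genes in 7 length classes, black points are the decay factors with bars of 1 SE. The medians run from 0.33 to -0.22 in DN3 and from 1.02 to -0.70 in DN2, and Rc3h2 in DN3 lies at -1.14.

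The passage from DN2 to DN3 in WT, in which both groups hold 3 libraries and neither holds one that stood apart, gave a larger difference for 1 member than any KO comparison did. The length medians above were taken from the WT mean of each stage, so they cannot show a length trend between the stages. Zfp36l1 was at 8.93 to 10.3 CPM in DN2 WT and at 39.5 to 43.8 CPM in DN3 WT, means of 9.75 ± 0.731 and 41.9 ± 2.16 CPM (SD, n = 3 each). The log2 fold change was 2.10 (SE 0.65), or 4.30-fold (edgeR, unadjusted p = 0.00894, adjusted p = 0.129). The adjusted p ranged from 3.92e-05 to 0.308 over 22 alternatives, 6 of which called it, among them DESeq2 (adjusted p = 0.0146) and edgeR without DN2 KO replicate 1 (0.00152), without DN2 KO replicate 2 (0.0014) and without both libraries that stood apart (3.92e-05). The 4-group fit shares 1 estimate of the spread, and the common dispersion was 0.281 with those libraries and 0.104 without them. Rc3h2 had means of 45.1 ± 7.91 CPM in DN2 WT and 77.6 ± 12.6 CPM in DN3 WT, again without overlap, a log2 fold change of 0.78 (SE 0.35, edgeR, unadjusted p = 0.0471, adjusted p = 0.358). With the offset for the trend over transcript length it was 0.41 (SE 0.33, edgeR, adjusted p = 0.67). Of 22 alternatives, 2 called the Rc3h2 difference. It was called without both libraries (adjusted p = 0.0184) and by limma voom with sample quality weights (0.0136).

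In all, 5 of 9 members did not overlap between the stages in WT, against 34.8% of all tested genes. Zfp36l1, Rc3h2, Zc3h12d and Zfp36 were higher in DN3 (4 of 9, against 17.5%) and Pum2 was lower (1 of 9, against 17.3%), with log2 fold changes of 1.03 (SE 0.92) for Zc3h12d, 0.54 (SE 0.58) for Zfp36 and -0.34 (SE 0.38) for Pum2. By edgeR 0 of the 9 were called, 2 had an unadjusted p under 0.05 and were higher (6.42% of all tested genes), and the background was 566 genes called (4.12%), 257 higher (1.87%) and 309 lower (2.25%). Without both libraries 2 of 9 were called, Zfp36l1 and Rc3h2, against 15.4% of 14519 genes tested. Rc3h1 overlapped between the stages, at 36.9 to 45.6 and 42.5 to 55.1 CPM, and Zc3h12a, Zfp36l2 and Elavl1 also overlapped.

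Levels per length, in TPM (transcript abundance scaled by length and depth) summed per gene, put Elavl1 and Zfp36l2 first in every group and the Regnases last. In DN3 WT the order was Elavl1 (87.0 ± 47.8 TPM, SD, n = 3), Zfp36l2 (42.1 ± 21.1), Zfp36l1 (23.7 ± 3.13), Pum2 (17.7 ± 0.351), Rc3h2 (15.3 ± 3.12), Rc3h1 (8.72 ± 1.53), Zfp36 (4.26 ± 0.103), Zc3h12a (1.92 ± 0.877) and Zc3h12d (1.04 ± 0.0759). Neighbours whose libraries overlapped there were Elavl1 with Zfp36l2, Zfp36l2 with Zfp36l1, Pum2 with Rc3h2, and Zc3h12a with Zc3h12d. In DN2 WT Zfp36l1 was at place 6 rather than 3, at 5.43 ± 0.842 TPM, below both Roquin genes without overlap. Rc3h1 (8.56 ± 0.697 TPM) and Rc3h2 (7.73 ± 0.700 TPM) overlapped in DN2 WT, whereas in DN3 WT Rc3h2 was above Rc3h1 without overlap. In DN3 KO they overlapped again, at 7.02 ± 2.76 TPM for Rc3h2 and 5.57 ± 2.65 TPM for Rc3h1. In DN2 KO every neighbouring pair overlapped, and 7 of the 9 members were below 2.5 TPM in replicate 2.

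**Figure D4:**
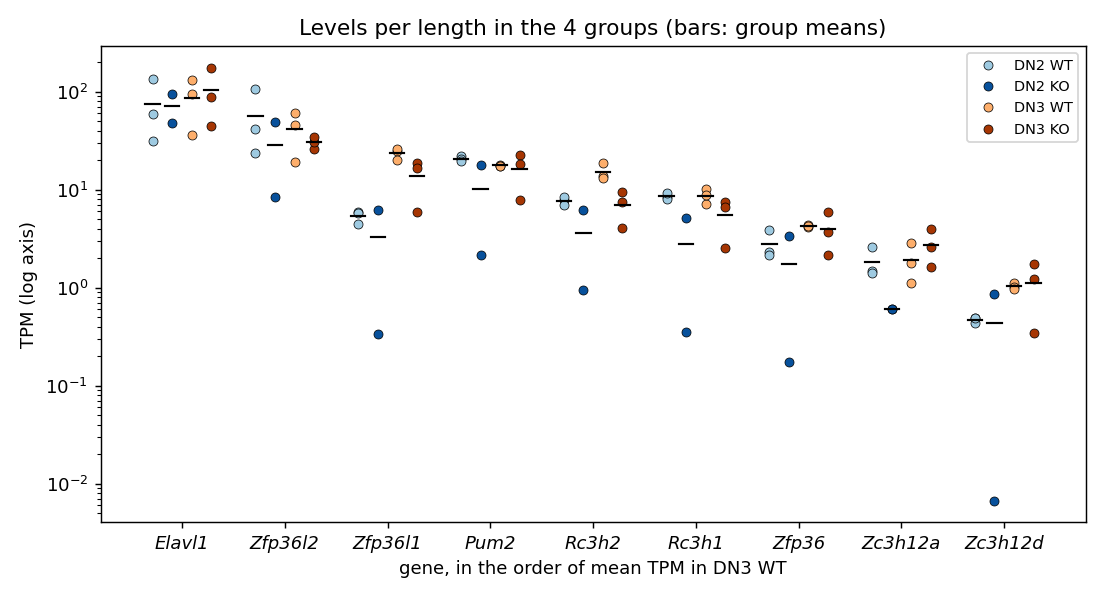
TPM of each decay factor (y axis, log scale) in the 4 groups; points are libraries, bars are group means, and genes on the x axis follow their mean in DN3 WT. Elavl1 is highest at 87.0 TPM in DN3 WT and Zc3h12d lowest at 1.04, and Zfp36l1 stands at 5.43 TPM in DN2 WT and 23.7 TPM in DN3 WT.

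The known targets of these proteins were read from lists of named genes. Of 13 Roquin and Regnase targets, 9 were tested and 0 were called for KO against WT in either stage by edgeR, with 0 at an unadjusted p under 0.05 in both. Their median log2 fold change was -0.13 in DN3 and -0.38 in DN2, against -0.01 and -0.06 over all tested genes. Irf4 was at 0 CPM in all DN2 libraries of both genotypes. Its DN2 log2 fold change was therefore fixed at 0, could not be called, and is counted in the DN2 median. Icos, the costimulatory receptor gene that defines Roquin targets, averaged 3.04 ± 1.32 CPM in DN3 WT and 1.71 ± 0.222 CPM in DN3 KO, a log2 fold change of -0.83 (SE 0.48, edgeR, adjusted p = 1). The Icos groups did not overlap, but the highest KO library (1.960 CPM) all but met the lowest WT library (1.962 CPM). Tnf, Il6, Il2 and Tnfrsf4 were too low to be tested. Between the stages in WT 3 of the 9 targets were called, against 4.12% of all tested genes. They include Irf4, which passed the filter on low counts only through DN3, the stage in which it is high. Ctla4, an inhibitory receptor gene, rose from 4.24 ± 5.59 to 63.0 ± 9.51 CPM (log2 fold change 3.89, edgeR, adjusted p = 0.0375). Irf4, a transcription factor gene, had 0 counts in all DN2 WT libraries and 28 to 37 in each DN3 WT library, at least 10.2-fold higher when set against 3 counts in the DN2 WT library where these are worth most, 0.136 CPM after TMM scaling (edgeR, adjusted p = 0.00681). Ier3, an early response gene, fell from 8.35 ± 3.05 to 0.570 ± 0.272 CPM (log2 fold change -3.86, edgeR, adjusted p = 0.00489).

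Of 14 targets of the ZFP36 family, which share Ier3, Tnf and Il2 with the previous list, 10 were tested and 0 were called for KO against WT by edgeR. At an unadjusted p under 0.05 there were 0 in DN3 and 1 in DN2, the transcription factor gene Fos. Its log2 fold change of 4.38 (SE 1.01) rests on very low levels, 0 to 0.131 CPM in DN2 WT and 0.708 and 1.90 CPM in DN2 KO. In the DN2 WT libraries 3 counts are worth 0.115 to 0.136 CPM. The median log2 fold changes of the list were -0.17 in DN3 and -0.50 in DN2. In the stage comparison 2 of 10 fell, against 2.25% of all tested genes, Ier3 and the cyclin gene Ccnd3, which went from 921 ± 48.9 to 404 ± 39.3 CPM (log2 fold change -1.19, edgeR, adjusted p = 0.0158). Ccnd3 in DN3 KO was at 406 ± 82.8 CPM. Notch1, the receptor gene that drives T cell commitment, had a log2 fold change of 1.42 between the stages (SE 0.77, edgeR, adjusted p = 0.508). Its libraries did not overlap, at 330 to 429 CPM in DN2 WT and 956 to 1105 CPM in DN3 WT, as for 17.5% of all tested genes in that direction. Without both libraries that stood apart, 6 of 11 tested ZFP36 targets were called between the stages, 3 higher and 3 lower, against 15.4% of all genes tested there, and 0 for KO against WT. Notch1 was among the 3 higher, at 1.44.

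The listed genes of the machinery that these factors recruit were all tested. Among 18 genes of deadenylation, 0 were called for KO against WT in either stage by edgeR, with 0 in DN3 and 2 in DN2 at an unadjusted p under 0.05, against 14.7% of all tested genes in DN2. Those 2 were the deadenylase genes Cnot8 and Pan3, with log2 fold changes of 0.96 and -1.28. Cnot8 overlapped, at 181 to 203 CPM in DN2 WT and at 202.8 and 552 CPM in DN2 KO. In DN3 0 of 18 were without overlap, against 10.5% of all tested genes, and in DN2 Tob2, Pan2 and Pan3, 3 of 18, were lower without overlap, against 8.27%. Their median log2 fold changes were -0.13 in DN3 and -0.30 in DN2. Between the stages 1 of 18 was called, against 4.12% of all tested genes: Btg2, an antiproliferative adaptor of CCR4-NOT, rose from 99.2 ± 28.5 to 493 ± 92.0 CPM (log2 fold change 2.31, edgeR, adjusted p = 0.00243). Btg2 was at 455 ± 78.8 CPM in DN3 KO and at 112 ± 31.1 CPM in DN2 KO, so that the DN3 libraries were higher in both genotypes. Among 24 genes of decapping and the exonucleases 0 were called in any comparison by edgeR, with 0 at an unadjusted p under 0.05 in DN3, 5 in DN2 and 0 between the stages. The 5 in DN2 were Lsm1, Lsm6, Lsm7, Exosc3 and Exosc4, between 1.13 and 1.83, all in the higher direction, in which 12.1% of all tested genes had such a p. KO and WT overlapped for each of the 5, with the lower KO library within the WT range and the other above it. The median log2 fold change of the 24 genes in DN2 was -0.21, and -0.03 without both libraries that stood apart, which leaves 1 DN2 KO library. Lsm7, for example, was at 98.9 to 130 CPM in DN2 WT and at 104 and 705 CPM in DN2 KO. For 9 partners and regulators, such as the Roquin cofactor Nufip2 and the Malt1 protease that cleaves Roquin and Regnase-1, and for 11 tested paralogs and other 3′-UTR binders, edgeR also called 0 in each of these comparisons. At an unadjusted p under 0.05 they had 1 (Bcl10, at 1.12) and 0 genes in DN2, 0 and 1 (Nanos1, at 1.63) between the stages, and 0 in DN3. Bcl10 overlapped between KO and WT in DN2.

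Likeness over the 11 libraries was computed for Rc3h1, Rc3h2 and Zfp36l2 as Pearson's r of log2 CPM, which describes libraries that share depth, stage, genotype and the length trend. The genes most like Rc3h1 were Upf2 (r = 0.982), Iws1 (0.981) and Zfp64 (0.978), and over the 9 libraries without both that stood apart these values were 0.799, 0.773 and 0.770. Those most like Rc3h2 were Cep97 (0.950), Zbtb44 (0.950) and Ddx60 (0.939), at 0.929, 0.860 and 0.841 over 9 libraries. Those most like Zfp36l2 were Znrf1 (0.950), Rcn1 (0.943) and Wee1 (0.937), at 0.967, 0.938 and 0.967 over 9 libraries. Among the members, Rc3h1 and Rc3h2 had an r of 0.894 over 11 and 0.760 over 9 libraries. Rc3h1 and Pum2 had 0.895 over 11 but 0.198 over 9, and Zfp36l2 and Elavl1 had 0.655 over 11 and 0.885 over 9. The likeness of Rc3h1 to Pum2 therefore rested on the libraries with low long transcripts, and that of Zfp36l2 to Elavl1 did not.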

How the data were processed

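DN2 and DN3 thymocytes were sorted, and total RNA was made into SmartSeq V4 and Nextera libraries, per the labels. The authors quantified transcripts with kallisto 0.46 on GRCm38 with Ensembl 101 transcripts, and deposited per transcript an estimated count, a TPM value, a length and an effective length. The methods name no test of differential expression for these files. Here estimated counts were summed per gene with GENCODE M21 (116640 of 119414 transcripts matched; 0.959 to 1.09% of counts did not), rounded, and tested with edgeR 4.0.16 (R 4.3.3): TMM, filterByExpr (minimum count 10, total 15), quasi-likelihood test over 4 groups, Benjamini-Hochberg adjustment, two-sided. The SE was taken as the absolute log2 fold change over the root of the F statistic. The deposited TPM values were summed per gene for levels. The code was tested on simulated data. Alternatives used DESeq2 1.42.0, limma 3.58.1, other filters and offsets, a replicate block and fewer libraries. The main fit was unpaired, since the labels do not say whether any libraries share an animal. All libraries were used. Markers for gamma delta T cells were found for 3 of 6 listed genes and summed to 139 to 294 CPM over the libraries, and 6 DP markers to 43.5 to 502 CPM. Themis made up most of the DP sum, averaging 426 CPM in DN3 WT, where Cd4, Cd8a and Cd8b1 averaged 1.08, 2.84 and 8.08 CPM. The members and lists were chosen with earlier results of these data known. Named genes are the members, listed genes that were called or define a list, and for Rc3h1, Rc3h2 and Zfp36l2 the 3 most like genes.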

Additional observations from a re-analysis of the deposited data

How the results depend on the processing

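The 36 log2 fold changes of the members had 780 alternative values in all. Of these, 698 kept the direction and the side of the threshold, 19 became called and 63 turned the direction, and 15 of the 36 differences never turned. Among those 15 were Rc3h1, Rc3h2 and Zfp36l1 in DN3, Rc3h1, Rc3h2 and Pum2 in DN2, and Rc3h2 and Zfp36l1 between the stages in WT. DN2 KO has 2 libraries, 1 of them apart from the rest, and Zc3h12a, Zc3h12d and Zfp36 rest on 2 to 235 estimated counts per library, which limits what the DN2 and Regnase values can resolve. The counts of listed genes without both libraries that stood apart were added after seeing the data. The cause of the changes below was not tested.

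Over all genes, the calls by edgeR were 1 in DN3, 0 in DN2, 0 for the interaction and 566 between the stages. DESeq2 called 16, 38, 10 and 1191. Limma voom with sample quality weights called 118 in DN3 and 2324 between the stages, and edgeR without DN2 KO replicate 2 and DN3 KO replicate 3 called 5 and 2230. A fit to DN3 libraries alone called 0. With 1 library left out at a time the calls ranged from 0 to 1 in DN3, 0 to 6773 in DN2, 0 to 3661 for the interaction (both highest values without DN2 KO replicate 1) and 243 to 1081 between the stages.

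Same-numbered libraries were not treated as pairs, since the labels do not say what the number stands for. Their deviations from the group means correlated above 0 in 12 of 15 pairs and above 0.1 in 9 (r from -0.455 to 0.531). All 6 pairs numbered 1 were above 0, and whether same-numbered libraries share a source was not tested. With the replicate number as a block, edgeR called 0 genes in DN3, 0 in DN2 and 444 between the stages, and with a block within genotype 216 between the stages; no member was called under either block. Under the number block the log2 fold change of Zfp36 in DN3 was -0.0395, that of Zfp36l2 in DN2 was 0.0413, and the interaction was 0.342 for Zfp36l1, -0.175 for Zfp36l2 and -0.921 for Elavl1. Under the block within genotype the interaction was 0.179 for Rc3h2, 0.975 for Zfp36l1 and -1.08 for Elavl1.

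Other turned differences were as follows. With an offset for average transcript length, Rc3h1 between the stages was -0.0913 and the interaction of Zfp36l1 was 0.01. With an offset for the length trend, Zfp36l2 in DN3 was 0.148, Zc3h12a in DN2 was 0.0304, Rc3h1 between the stages was -0.188 and the interaction of Zfp36l1 was 0.032. With limma on log2(TPM + 1), DN3 values were -0.0132 for Zc3h12d, -0.162 for Zfp36 and -0.229 for Pum2, Zc3h12a between the stages was 0.0269, and the interaction was 0.145 for Rc3h2 and 0.179 for Zfp36l1. With limma voom, Elavl1 in DN3 was -0.203, and the interaction was 0.189 for Rc3h2, 1.3 for Zfp36l1 and -0.971 for Elavl1. Without both libraries that stood apart, Elavl1 in DN3 was -0.372, DN2 values were 0.856 for Zc3h12d, 0.214 for Zfp36 and 0.347 for Zfp36l1, and the interaction was -0.349 for Zc3h12d, -0.0482 for Zfp36, -0.315 for Zfp36l2 and -0.62 for Elavl1.

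With 1 library left out at a time, DN3 ranges were -0.176 to 0.51 for Zc3h12d, -0.197 to 0.17 for Zfp36, -0.563 to 0.181 for Zfp36l2, -0.362 to 1.12 for Elavl1 and -0.00851 to 0.228 for Pum2. DN2 ranges were -1.07 to 0.338 for Zc3h12a, -4.55 to 0.857 for Zc3h12d, -2.55 to 0.211 for Zfp36, -3.09 to 0.349 for Zfp36l1 and -1.33 to 0.0928 for Zfp36l2. Interaction ranges were -0.0694 to 2.13 for Rc3h1, -0.618 to 0.614 for Rc3h2, -0.677 to 4.74 for Zc3h12d, -0.175 to 2.6 for Zfp36, -0.956 to 2.49 for Zfp36l1, -0.236 to 1.19 for Zfp36l2 and -0.94 to 0.545 for Elavl1. Between the stages they were -0.968 to 0.22 for Zfp36l2 and -0.294 to 0.764 for Elavl1.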
